A study of Drosophila melanogaster with 6 samples.

Results

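The mitochondrial ribosomal protein genes are the nuclear genes whose products, together with 2 ribosomal RNAs encoded in mitochondrial DNA, build the ribosome inside mitochondria. They were taken as every gene whose symbol starts with mRpL (large subunit) or mRpS (small subunit) followed by a digit, which gave 73 of the 17868 genes listed in the count files, 47 of the large and 26 of the small subunit. All 73 matched a protein-coding gene of the Ensembl annotation of build BDGP6.54, which has dm6 coordinates, the build the submitters name. The libraries came from clock neurons, the brain cells that keep daily time, of adult Drosophila melanogaster at zeitgeber time (ZT) 14, with ZT 12 as the start of the dark phase. The 3 Prp3-RNAi libraries came from flies that carried the driver ClkGAL4, the nuclear marker UAS-GFP-NLS and the transgene UAS-Prp3-RNAi, a Bloomington stock. Its target, Prp3, is a part of the spliceosome, the machine that removes introns. The 3 control libraries came from flies with 1 copy of the ClkGAL4, UAS-GFP-NLS chromosome, which the labels call wildtype and for which they list no RNAi transgene. Both groups thus shared the driver and the marker, and both had lived for 5 days under alternating 12 h of light and 12 h of darkness. Some 2000 cells per library were sorted for GFP and against DAPI, a stain of dead cells, so that any cell with an active ClkGAL4 driver could enter. The titles of the control libraries name the Prp3-RNAi library each belongs with. The labels say neither what a pair shares nor whether libraries came from separate flies. The main fit was blocked by pair, so its p-values measure the spread of the differences within these pairs of libraries.

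As background, mitochondria keep a small genome whose messages code for core subunits of the respiratory chain and of ATP synthase. The mitochondrial ribosome translates these messages, its proteins are made in the cytosol and imported, and it differs in many proteins from the cytosolic ribosome. Of its proteins, some belong to families shared with the bacterial ribosome and others are particular to mitochondria. Neurons draw much of their energy from respiration, and in Drosophila the mutant technical knockout (tko), which affects the mitochondrial S12 protein, is known for seizures after mechanical shock.

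The libraries held 28980608 to 30637247 gene counts in Prp3-RNAi and 24477244 to 32551739 in control. Prp3 had 27.0, 28.3 and 10.8 CPM (counts scaled to library size, with TMM factors) in Prp3-RNAi libraries 1 to 3, against 45.6, 68.8 and 29.4 CPM in control libraries 1 to 3, lower in 3 of 3 pairs (log2 fold change -1.16, SE 0.24, unadjusted p-value 0.00385, adjusted p-value 0.384, edgeR). Its adjusted p-value ran from 0.00883 with DESeq2 to 0.994 without the replicate block in edgeR. All 5 neuron markers read (elav, nSyb, brp, Syt1 and CadN) were present, with a summed level of 2735 to 3753 CPM in Prp3-RNAi and 2862 to 3833 CPM in control. All 7 clock neuron markers had counts in every library, but the lateral neuron peptide gene Pdf had 302, 155 and 19961 CPM in Prp3-RNAi libraries 1 to 3, against 15942, 2566 and 17385 CPM in control libraries 1 to 3. Pdf was thus low in both libraries of pair 2 and in Prp3-RNAi library 1. Of the 7, 5 had a fold change below 0. In cry and vri all Prp3-RNAi libraries were below all control libraries (5.34% of all tested genes). The gene cry had 85.2, 81.1 and 90.9 CPM in Prp3-RNAi libraries 1 to 3, against 222, 190 and 105 CPM in control. For vri the values were 165, 238 and 227 CPM, against 322, 256 and 251 CPM. In pair 1, 1 of the 7 was higher in Prp3-RNAi, in pair 2 1 and in pair 3 5. The part of these differences in the members' values was not tested. The 7 glia markers summed to 249 to 453 CPM in Prp3-RNAi and 194 to 675 CPM in control. Among them the glial factor gene repo stayed at or below 0.571 CPM in Prp3-RNAi and 1.56 CPM in control. Others were higher, with nrv2 at 119 CPM or more in every library. Gs2 had 105, 93.4 and 257 CPM in Prp3-RNAi libraries 1 to 3, against 222, 61.2 and 502 CPM in control. For alrm the values were 28.3, 6.32 and 43.4 CPM, against 15.2, 3.36 and 33.4 CPM. Gs2 and alrm alone of the 7 were lowest in library 2 of both groups. The photoreceptor markers, 7 in number, had summed levels of 15.7, 8.44 and 45.1 CPM in Prp3-RNAi libraries 1 to 3, against 59.8, 3.57 and 48.0 CPM in control libraries 1 to 3. The 6 muscle markers summed to at most 0.411 CPM in Prp3-RNAi and 2.82 CPM in control, with Act88F and Act57B at 0 in every library. Of the fat body list Lsp2 was at 0 in every library, while FASN1 stood at 80.1 to 101 CPM in Prp3-RNAi and 104 to 128 CPM in control, and apolpp at 5.14 to 29.1 CPM in Prp3-RNAi and 13.4 to 28.1 CPM in control. Of the blood cell list He was at 0 in every library, Pxn stood at 43.7 to 60.5 CPM in Prp3-RNAi and 11.6 to 72.9 CPM in control, and Hml and NimC1 stood at 45.9 and 29.0 CPM in control library 3. The part of these cells in the members' values was not tested.

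The mitochondrial ribosomal protein genes were transcribed as an almost complete set. In each of the 6 libraries 72 of the 73 had counts, from 63 to 7522 per library, so no member owed its place in the test to 1 group. Together they held 0.571%, 0.458% and 0.564% of the gene counts of Prp3-RNAi libraries 1 to 3, against 0.461%, 0.444% and 0.528% of those of control libraries 1 to 3. Levels between genes were compared as mean CPM per kb of exon, since the members' exonic lengths ran from 327 to 2078 bases. On that scale the median member stood at 74.1 CPM per kb, against 12.7 CPM per kb over the 8256 tested genes with a known length, 414 CPM per kb over the cytosolic ribosomal protein genes and 16.6 CPM per kb over the mitochondrial translation factors. The lower quartile of the members was 54.3 CPM per kb and the upper quartile 104 CPM per kb, a 1.92-fold span. The large subunit members had a median of 84.2 CPM per kb and the small subunit members one of 63.4 CPM per kb.

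By the mean of all 6 libraries, the highest levels belonged to mRpS18A, mRpL24, mRpL50, mRpS25 and mRpL54. mRpS18A (chromosome 3R, 8561917 to 8562593, minus strand, 1 intron) had 280 ± 72.5 CPM per kb in Prp3-RNAi and 242 ± 61.3 CPM per kb in control (SD, n = 3 each). It is 1 of 3 relatives of the bacterial S18 protein, and in mammals the A form sits in the large subunit. Here subunits were assigned by symbol alone, so mRpS18A was counted with the small subunit. mRpS18C reached 69.4 ± 8.63 CPM per kb in Prp3-RNAi and 66.2 ± 13.4 CPM per kb in control. mRpS18B reached 37.1 ± 12.9 CPM per kb in Prp3-RNAi and 33.3 ± 3.54 CPM per kb in control, so the 3 relatives lay in the order A, C, B in both groups. The ranges of mRpS18A did not overlap those of the other 2. mRpL24, of the family of bacterial L24, had 178 ± 33.9 CPM per kb in Prp3-RNAi and 189 ± 35.5 CPM per kb in control. mRpS25 and mRpL54, proteins particular to mitochondria, had 155 ± 25.8 and 151 ± 24.0 CPM per kb in Prp3-RNAi, against 153 ± 18.3 and 129 ± 27.8 CPM per kb in control. mRpL50 had 192 ± 37.3 CPM per kb in Prp3-RNAi and 124 ± 21.4 CPM per kb in control, where mRpS5, mRpL20, mRpL39 and mRpS10, named after their values had been seen, also lay above it, at 126 to 135 CPM per kb. By the means mRpL50 lay above mRpL24 in Prp3-RNAi and below it in control. The 2 lay further apart than the SD of either in control, but within it in Prp3-RNAi. A change of their order was not tested.

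**Figure D1:**
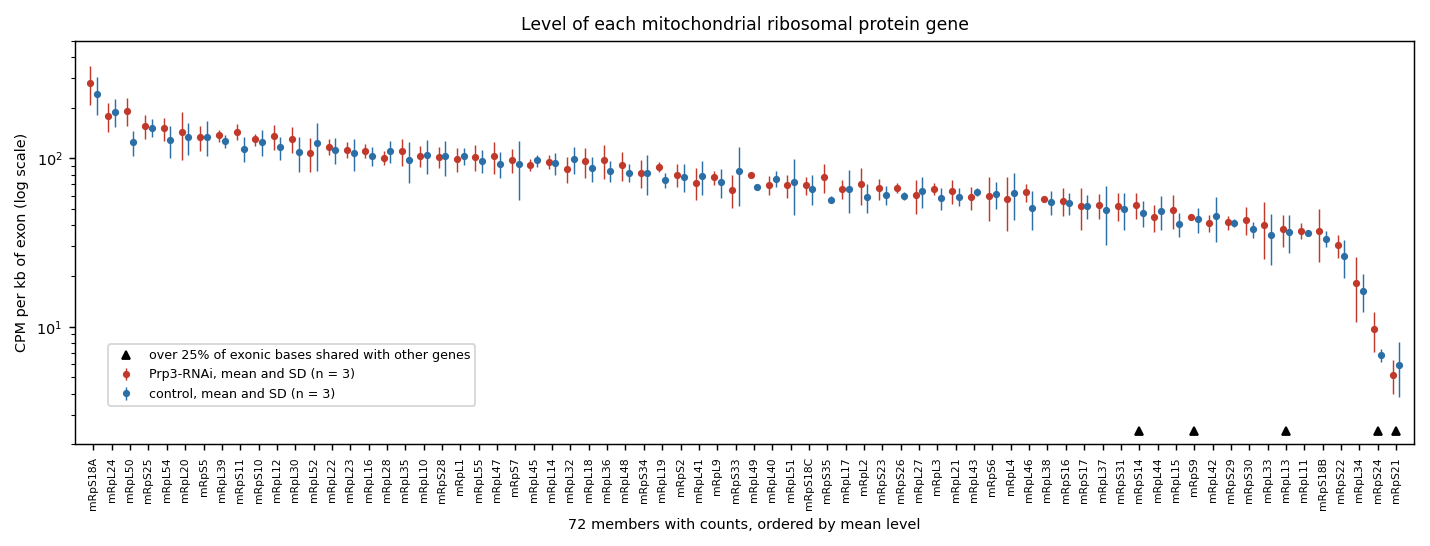
Mean level of the 72 members with counts in CPM per kb of exon (vertical log axis), ordered by the mean of all 6 libraries; Prp3-RNAi stands left of control, and bars are SD over 3 libraries. Most members lie in a band around the median of 74.1 CPM per kb, mRpS18A stands at the top, and the 2 lowest, mRpS24 and mRpS21, share over 25% of their exonic bases with other genes (triangles).

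By the same mean, the lowest levels belonged to mRpS21, mRpS24, mRpL34, mRpS22 and mRpS18B. mRpS21, of the bacterial S21 family, averaged 2.45 ± 0.565 CPM in Prp3-RNAi and 2.82 ± 1.01 CPM in control (SD, n = 3 each). In the annotation it shares 228 of its 475 exonic bases (48.0%) with CG8870. mRpS24, the mitochondrial counterpart of bacterial S3, shares 332 of 600 exonic bases (55.3%) with TBC1d7 and averaged 8.21 CPM per kb over the 6 libraries. Dividing by the unshared bases alone put the means over the 6 libraries at 10.7 CPM per kb for mRpS21 and 18.4 CPM per kb for mRpS24, still the lowest of the 72 together with mRpL34, the shortest member, at 19.2 CPM per kb. mRpL34 had 18.2 ± 7.61 CPM per kb of whole exon in Prp3-RNAi and 16.3 ± 4.17 CPM per kb in control. mRpS22, a protein particular to mitochondria whose human counterpart is a disease gene, had 30.4 ± 4.67 CPM per kb in Prp3-RNAi and 26.2 ± 6.57 CPM per kb in control.

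The member without counts, mRpL53 (chromosome 2R, 13954195 to 13955664, plus strand), had 0 counts in all 6 libraries. All 829 of its exonic bases are shared with exons of AGO1, a gene of the small RNA pathway, or of CG33155. The files hold a line for reads that fall on several genes, 5.00% to 5.25% of all reads in Prp3-RNAi and 4.89% to 5.34% in control, so the 0 gives no level for this gene. Of the 73 members, 43 shared at least 1 exonic base with another gene, and 6 shared over 25%. Counts were read without strand, and reads from such stretches were lost or could not be told from those of the partner.

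**Figure D2:**
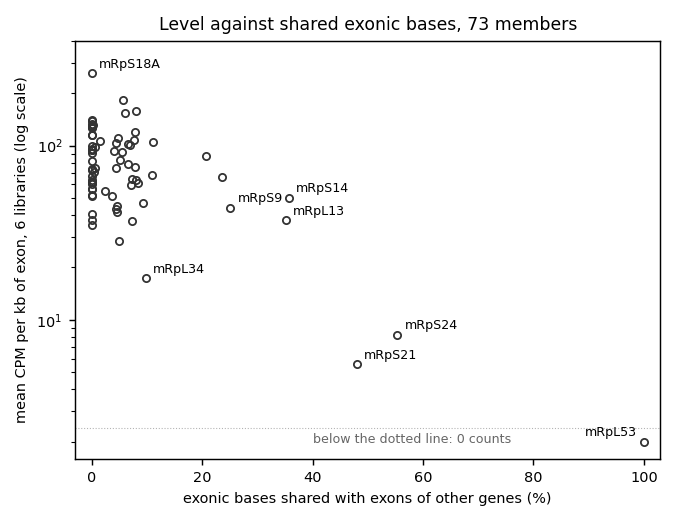
Mean level over the 6 libraries in CPM per kb of exon (vertical log axis) against the percentage of a gene's exonic bases that lie in exons of other genes, 1 point per member (n = 73). The member with 100% shared bases, mRpL53, has 0 counts and is drawn below the dotted line; those with 55.3% and 48.0%, mRpS24 and mRpS21, are the lowest of the others.

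The members were small and simple genes. Their median exonic length was 783 bases with a median of 1 intron, against 2229 bases and 3 introns over the 7767 tested protein-coding genes. Of the 72 tested members, 64 (88.9%) had at most 2 introns, against 41.4% of those genes. For 56 members (77.8%) a protein-coding gene on the other strand started within 1000 bases upstream, against 42.9% of the same background. The members lay on chromosomes X (11), 2L (12), 2R (12), 3L (17) and 3R (21).

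The design set Prp3-RNAi against control, and no member of the ribosome was called different between them by edgeR. With its quasi-likelihood test, 0 of the 72 tested members had an adjusted p-value under 0.05, where 0% of the 8708 tested genes were called. DESeq2 called 1 of them, mRpL50, higher, beside 1.8% of all tested genes that it called higher and 4.36% that it called in either direction, and limma-voom called 0. At an unadjusted p-value under 0.05 in edgeR there were 2 members, both higher in Prp3-RNAi (4.71% of all tested genes reached this level and were higher), and 0 lower (5.27% of all). In either direction this is 2 of 72 beside 9.98% of all tested genes. The lowest adjusted p-value among the members was 0.384. In 6 members all Prp3-RNAi libraries were above all control libraries (6.27% of all tested genes), and in 0 were all below (5.34%).

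mRpL50 (chromosome 3L, 7243080 to 7243933, minus strand, 2 introns) codes for a protein of the large subunit that is particular to mitochondria. It had 157, 110.2 and 159 CPM in Prp3-RNAi libraries 1 to 3, against 88.3, 78.1 and 109 CPM in control libraries 1 to 3. Every Prp3-RNAi library was above every control library, though by little for Prp3-RNAi library 2 and control library 3. The means were 142 ± 27.6 CPM in Prp3-RNAi and 91.9 ± 15.8 CPM in control (SD, n = 3 each), and the pairs differed by 0.83, 0.50 and 0.54 on the log2 scale. The log2 fold change was 0.62 (SE 0.13, 95% interval 0.29 to 0.95), and its p-value in edgeR was 0.00438 before adjustment and 0.384 after it. With DESeq2 the log2 fold change was 0.61 at an adjusted p-value of 0.019. Over the 10 alternatives the adjusted p-value ran from 0.019 to 0.898, and the log2 fold change stayed between 0.53 and 0.69 in all of them. The gene shares 60 of its 739 exonic bases with Neos.

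mRpS35 (chromosome 3L, 2780899 to 2782105, plus strand, 1 intron), a mitochondria-specific protein of the small subunit, shares no exonic base with another gene. It had 96.8, 69.1 and 99.9 CPM in Prp3-RNAi libraries 1 to 3, against 64.4, 62.5 and 68.7 CPM in control libraries 1 to 3. The groups did not overlap, but Prp3-RNAi library 2 lay only just above control library 3. The log2 fold change was 0.43 (SE 0.16, 95% interval 0.02 to 0.83), its p-value in edgeR was 0.0417 before adjustment and 0.482 after it, and none of the 10 alternatives called it, with adjusted p-values of 0.356 to 0.999. Pair 2 differed least, by 0.15 on the log2 scale, against 0.59 in pair 1 and 0.54 in pair 3.

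The other 4 members whose groups did not overlap were mRpL19, mRpL49, mRpS26 and mRpS24, of which the first 3 were named after their values had been seen. mRpL49, a protein particular to mitochondria, varied least of them: it had 60.0, 62.0 and 61.9 CPM in Prp3-RNAi libraries 1 to 3, against 50.5, 53.6 and 53.0 CPM in control libraries 1 to 3. Its log2 fold change was 0.23 (SE 0.15, unadjusted p-value 0.186, adjusted p-value 0.659, edgeR). mRpL19, of the bacterial L19 family, had 98.8, 86.3 and 91.0 CPM in Prp3-RNAi libraries 1 to 3, against 86.2, 72.7 and 71.7 CPM in control libraries 1 to 3 (log2 fold change 0.26, SE 0.13, adjusted p-value 0.584, edgeR). In mRpL19 the lowest Prp3-RNAi library and the highest control library nearly met. mRpS26 had 54.0, 52.3 and 59.4 CPM in Prp3-RNAi libraries 1 to 3, against 46.3, 51.0 and 50.6 CPM in control libraries 1 to 3 (log2 fold change 0.16, SE 0.16, edgeR). mRpS24 averaged 5.79 ± 1.56 CPM in Prp3-RNAi and 4.07 ± 0.342 CPM in control (SD, n = 3 each), and at this low level the fitted standard error, which borrows from genes of like level, was 0.74 around a log2 fold change of 0.48.

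**Figure D3:**
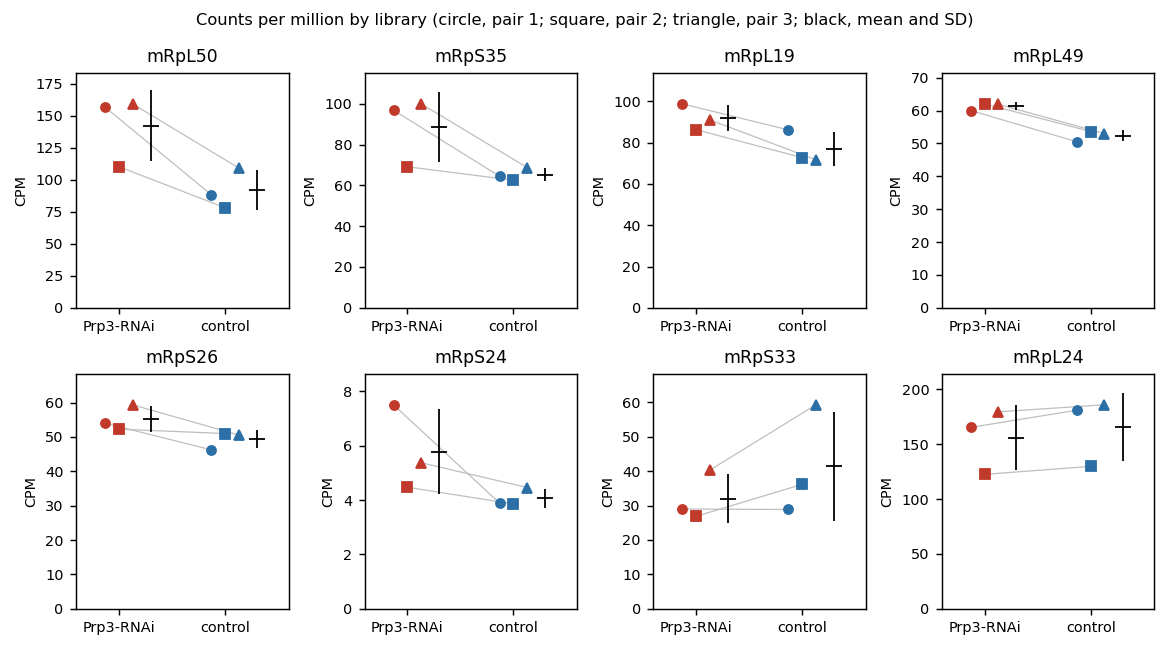
CPM (vertical axes, from 0) of 8 members in the 3 Prp3-RNAi libraries (left in each panel) and the 3 control libraries (right), with lines joining the stated pairs and the mean and SD in black. In mRpL50, mRpS35, mRpL19, mRpL49, mRpS26 and mRpS24 the groups do not overlap; in mRpS33 and mRpL24 they do.

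Members with well-known places in the ribosome gave differences that did not pass the test. mRpL12, the stalk protein that recruits translation factors in bacteria, had 117, 84.7 and 97.0 CPM in Prp3-RNAi libraries 1 to 3, against 101, 76.8 and 79.9 CPM in control libraries 1 to 3. The groups overlapped, although each pair was higher in Prp3-RNAi (log2 fold change 0.21, SE 0.13, adjusted p-value 0.634, edgeR). mRpL4, whose bacterial counterpart lines the exit tunnel, had a log2 fold change of -0.14 (SE 0.15), and mRpL24 one of -0.09 (SE 0.10), both below 0 in 3 of 3 pairs. mRpS11, of the bacterial S11 family, had 112, 92.0 and 111 CPM in Prp3-RNAi libraries 1 to 3, against 77.5, 72.8 and 99.4 CPM in control libraries 1 to 3. Its groups overlapped in 1 library, and its p-value was the third smallest of the members (log2 fold change 0.34, SE 0.14, unadjusted p-value 0.0566, adjusted p-value 0.515, edgeR). mRpS29, the counterpart of the human GTP-binding protein DAP3, stood at 56.0, 57.5 and 66.4 CPM in Prp3-RNAi libraries 1 to 3, against 55.7, 60.5 and 62.7 CPM in control libraries 1 to 3. Its groups overlapped, the 95% interval of its log2 fold change was -0.37 to 0.38, and the sign of the fold change turned in 3 of the 10 alternatives. mRpL12, mRpS11 and mRpS29 were named after their values had been seen.

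At the other end, mRpS33, a small subunit protein particular to mitochondria, had the fold change farthest below 0. It had 29.0, 26.8 and 40.3 CPM in Prp3-RNAi libraries 1 to 3, against 28.9, 36.2 and 59.3 CPM in control libraries 1 to 3. The libraries of pair 1 were level, while Prp3-RNAi was lower in pairs 2 and 3 (log2 fold change -0.33, SE 0.22, adjusted p-value 0.66, edgeR). Only 5 members were lower in 3 of 3 pairs, where 18.2% of all tested genes were, namely mRpL4, mRpL24, mRpL32, mRpL40 and mRpL52, with log2 fold changes of -0.19 to -0.09 and adjusted p-values of 0.724 and above (edgeR). mRpL32, mRpL40 and mRpL52 were named after their values had been seen. In 15 members each pair was higher in Prp3-RNAi, where 17.5% of all tested genes were.

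mRpL33, mRpL4 and mRpS33 varied most within the groups among members of at least 10 CPM, with coefficients of variation of 31.4% to 35.5%. mRpL33, of a small bacterial family, had 12.9, 9.43 and 19.7 CPM in Prp3-RNAi libraries 1 to 3, against 10.7, 9.02 and 16.8 CPM in control libraries 1 to 3, highest in library 3 of both groups. mRpL4 had 55.7, 38.9 and 78.9 CPM in Prp3-RNAi libraries 1 to 3, against 66.0, 42.3 and 81.3 CPM in control libraries 1 to 3, again highest in library 3 and lowest in library 2 of both groups.

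As a set the members had small fold changes. Their log2 fold changes ran from -0.33 to 0.62 with a median of 0.08, beside a median of 0.01 over all tested genes, and their interquartile range was 0.19, beside 0.58 over all tested genes. Of the 72, 63 had a log2 fold change between -0.25 and 0.25. The 95% interval of the fold change lay inside a 2-fold change in both directions for 68 members (94.4%), beside 47.6% of all tested genes and 51.6% of the 6423 tested genes whose mean CPM was within the members' range. The other 4 were mRpL33, mRpL34, mRpS21 and mRpS24, the 4 with the fewest counts. Inside a 1.5-fold change lay 37 members (51.4%), beside 22.5% of all tested genes. The 84 tested cytosolic ribosomal protein genes were narrower still, so this was not particular to the members. Their interquartile range was 0.16, with 97.6% inside a 2-fold change and 79.8% inside a 1.5-fold change. Libraries of a group also differed less in the members, with a median coefficient of variation of 18.7%, beside 28.7% over the tested genes within the members' CPM range. It was 15.9% over the cytosolic ribosomal protein genes. The members' range ran from 2.64 to 225 CPM, while 69 members had a mean of at least 10 CPM. Genes within the range were not matched to the members' levels, which limits the 28.7% and the 51.6% as comparisons. The order of the members was much the same in every library: across the 72, log2 CPM per kb correlated (Pearson) at 0.92 to 0.97 between any 2 libraries, within and between groups alike. These points share libraries, gene lengths and chemistry, so the value is a description.

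**Figure D4:**
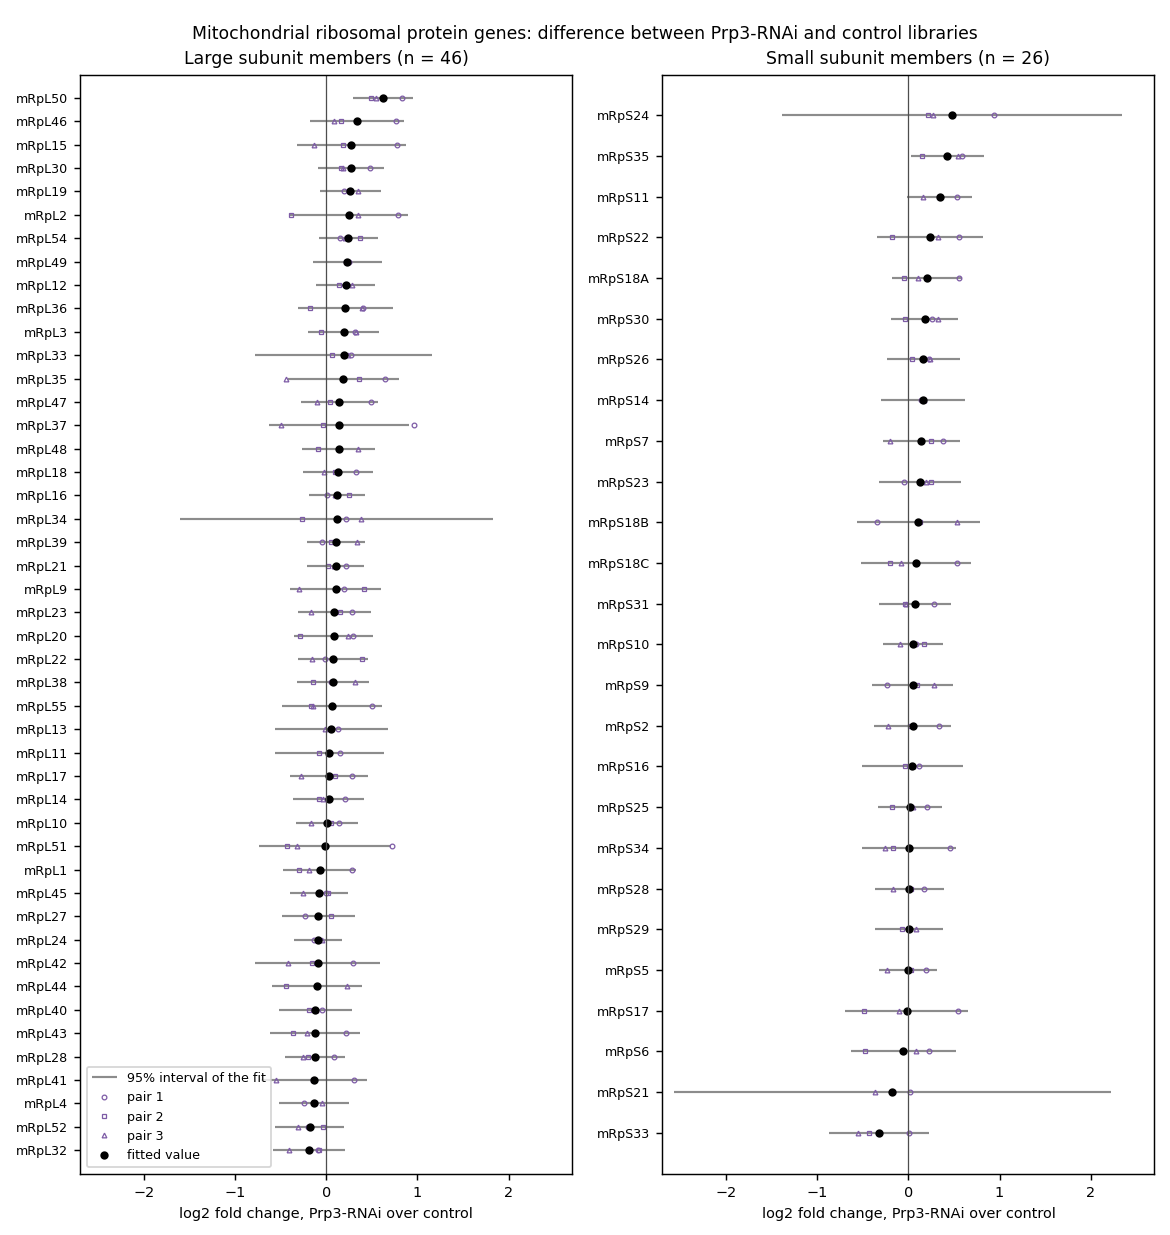
Log2 fold change of each tested member, Prp3-RNAi over control (horizontal axis), with the 95% interval of the edgeR fit as a line and the differences of the 3 pairs as open marks; 46 large subunit members on the left and 26 small subunit members on the right. All fitted values lie between -0.33 and 0.62, and the intervals of mRpL50 and mRpS35 alone exclude 0.

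The fold change was above 0 for 53 of the 72 members (73.6%), beside 50.9% of all tested genes, and the excess stood in pair 1. Of the lists read below, it was above 0 for the 14 mitochondrially encoded genes tested, of 37 listed. Of these 14, srRNA, ND2, ND3 and ND6 averaged only 1.78 to 2.38 CPM, with SEs of 1.03 to 1.12. ND4, ND5 and ND6 each changed sign in 1 of the 10 alternatives. It was also above 0 for 15 of 16 mitochondrial aminoacyl-tRNA synthetase genes. The counts were 7 of 11 for mitochondrial translation factors and 7 of 12 for genes of mitochondrial transcription and RNA. For the cytosolic ribosomal protein genes the count was 6 of 84. In pair 1 59 members were higher in the Prp3-RNAi library (49.7% of all tested genes were), with a median difference of 0.22 on the log2 scale. In pair 2 36 were higher (50.8% of all) with a median of -0.01, and in pair 3 35 (48.3% of all) with a median of -0.02. Without pair 1, 37 of 72 had a fold change above 0 and the median was 0.01. The members' summed level was 5530, 4458 and 5597 CPM in Prp3-RNAi libraries 1 to 3, against 4698, 4423 and 5600 CPM in control libraries 1 to 3, so that the groups overlapped and the libraries of pair 2 were the lowest of their groups. The summed neuron markers were instead highest in library 2 of both groups. They had 3069, 3753 and 2735 CPM in Prp3-RNAi libraries 1 to 3, against 3114, 3833 and 2862 CPM in control libraries 1 to 3. By marker, nSyb and Syt1 were highest in library 2 of both groups. The marker brp was lowest there, with 383, 182 and 302 CPM in Prp3-RNAi libraries 1 to 3, against 303, 188 and 244 CPM in control libraries 1 to 3. CadN was lowest in library 2 of Prp3-RNAi alone and elav in library 2 of control alone. The part of these markers in the members' levels was not tested. In sorted bulk samples, fewer cells of a type and less RNA per cell cannot be told apart.

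The subdivisions of the set did not part from each other by much. The 46 large subunit members tested had a median log2 fold change of 0.08 and the 26 small subunit members one of 0.06. The median was 0.08 over the 42 members with numbers up to 36 for the large and 21 for the small subunit. These numbers were taken to name families shared with bacteria. Over the 30 tested members with higher numbers the median was 0.07. The split went by number alone, so mRpS24, the counterpart of bacterial S3, was counted with the higher numbers. By intron number the median was 0.01 over the 8 members with 0 introns, 0.11 over the 31 with 1, 0.05 over the 25 with 2 and 0.13 over the 8 with 3 or more. Of the members that share exonic bases with other genes, the 42 tested had a median of 0.05, and the 30 without sharing had one of 0.12. Differences between these medians were not tested.

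Among proteins of the mitochondrial ribosome, S12 and S15 carry other gene symbols. The gene tko, of the S12 protein, had 124, 75.1 and 113 CPM in Prp3-RNAi libraries 1 to 3, against 98.3, 84.1 and 122 CPM in control libraries 1 to 3 (log2 fold change 0.02, SE 0.15, adjusted p-value 0.983, edgeR). The gene bonsai, of the S15 protein, had 52.4, 39.7 and 61.6 CPM in Prp3-RNAi libraries 1 to 3, against 32.1, 42.3 and 36.3 CPM in control libraries 1 to 3 (log2 fold change 0.46, SE 0.24, adjusted p-value 0.599, edgeR). In both genes the groups overlapped.

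The RNA partners of these proteins, the 2 mitochondrial ribosomal RNAs, are encoded in mitochondrial DNA. The large ribosomal RNA (lrRNA) had 53.4, 47.9 and 99.6 CPM in Prp3-RNAi libraries 1 to 3, against 55.1, 41.4 and 61.0 CPM in control libraries 1 to 3 (log2 fold change 0.29, SE 0.20, adjusted p-value 0.678, edgeR). The small one (srRNA) had 3.26, 1.08 and 4.01 CPM in Prp3-RNAi, against 3.51, 0.672 and 1.78 CPM in control (log2 fold change 0.58, SE 1.03, adjusted p-value 0.894, edgeR). Both lay far below the message COX1, which averaged 1899 CPM over the 6 libraries. They were therefore not read as amounts of ribosomal RNA in the cells. The 14 tested mitochondrially encoded genes together gave 0 calls and 1 gene at an unadjusted p-value under 0.05 in edgeR (9.98% of all tested genes). This was COX2, a subunit of cytochrome c oxidase (log2 fold change 0.26, SE 0.09, adjusted p-value 0.468, edgeR). Their median differences by pair were 0.03, 0.19 and 0.56, largest in pair 3, whereas those of the ribosomal protein members were largest in pair 1. Both sets of values come from the same libraries.

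Other genes of the pathway gave no call in edgeR either. Of the 11 tested mitochondrial translation factors, 0 reached an unadjusted p-value under 0.05 in edgeR, which 9.98% of all tested genes did. Their log2 fold changes ran from -0.55 for the release factor gene mRF1 to 0.59 for the initiation factor gene mIF2. Both were named after their values had been seen, as was mEFTs. The elongation factor gene mEFTs had 125, 122 and 124 CPM in Prp3-RNAi libraries 1 to 3, against 113, 121 and 133 CPM in control libraries 1 to 3. Of the 16 mitochondrial aminoacyl-tRNA synthetase genes, which charge tRNAs for this ribosome, 1 reached that level, ArgRS-m. It had 24.4, 16.7 and 21.6 CPM in Prp3-RNAi libraries 1 to 3, against 8.21, 12.2 and 3.21 CPM in control libraries 1 to 3 (log2 fold change 1.58, SE 0.58, unadjusted p-value 0.038, adjusted p-value 0.474, edgeR). Its groups did not overlap, where 6.27% of all tested genes were likewise apart and higher. Exons of ArgRS-m cover 325 of the 1293 exonic bases of mRpS9, named here for that overlap, whose log2 fold change was 0.05 (SE 0.18). Of the 12 tested genes of mitochondrial transcription and RNA, 1 reached an unadjusted p-value under 0.05, MTPAP, the mitochondrial poly(A) polymerase, which had 17.2, 16.3 and 11.1 CPM in Prp3-RNAi libraries 1 to 3, against 0.376, 10.7 and 0.78 CPM in control libraries 1 to 3 (log2 fold change 3.37, SE 1.22, adjusted p-value 0.472, edgeR). The groups of MTPAP did not overlap either, and control library 2 stood apart from the other control libraries. DESeq2 called the gene (adjusted p-value 0.00983), beside 1.8% of all tested genes that it called higher.

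The cytosolic ribosomal protein genes were read beside the members because they carry the same kind of function in the cytosol. Of 84 tested, 25 reached an unadjusted p-value under 0.05 and were lower in Prp3-RNAi (5.27% of all tested genes), 0 were higher, and edgeR called 0 of them after adjustment over all genes. Their median log2 fold change was -0.18, beside 0.08 for the mitochondrial members, and their median differences by pair were -0.18, -0.15 and -0.25, beside 0.22, -0.01 and -0.02 for the mitochondrial members. RpL5, of the large cytosolic subunit, had 1225, 1253 and 1230 CPM in Prp3-RNAi libraries 1 to 3, against 1617, 1523 and 1780 CPM in control libraries 1 to 3 (log2 fold change -0.41, SE 0.09, adjusted p-value 0.405, edgeR), and DESeq2 called it (adjusted p-value 6.32e-05). The difference between the 2 lists has no test here.

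**Figure D5:**
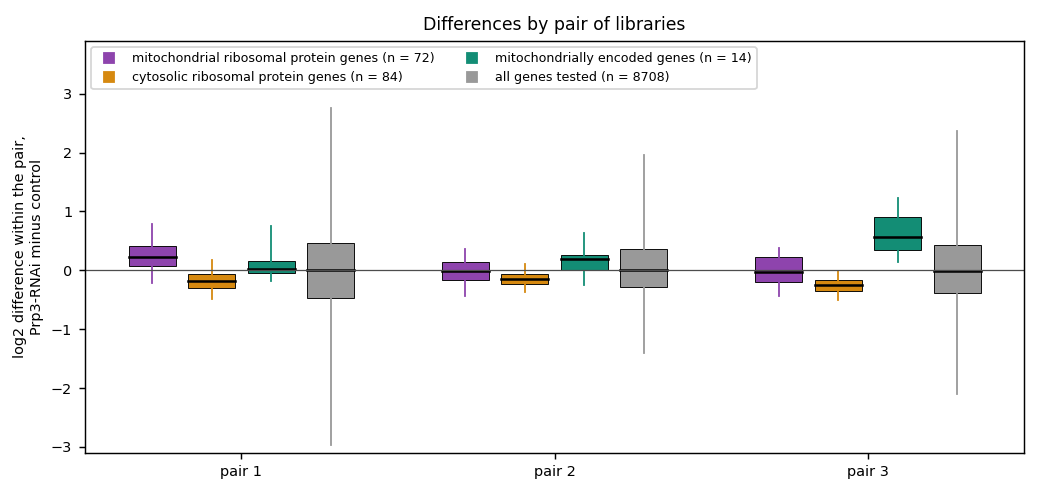
Log2 difference within each pair, Prp3-RNAi minus control (vertical axis), for the tested members, the tested cytosolic ribosomal protein genes, the tested mitochondrially encoded genes and all tested genes; boxes run from the lower to the upper quartile of the genes, black bars are medians and whiskers run from the 5th to the 95th percentile. The box of the mitochondrial ribosomal protein genes lies above 0 in pair 1 (median 0.22) and across 0 in pairs 2 and 3.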

How the data were processed

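The authors deposited whole-number read counts per gene for 6 libraries, with the unmapped, multimapping, featureless and ambiguous reads in 4 lines above the genes. The submitters' processing notes name Trim Galore 0.6.7, STAR 2.7.0a and build dm6. The annotation and counting settings are not given in the sources used here. The 2 strand columns held equal shares of the gene counts (50.0% to 50.1% in the first), so the column without strand was used. Of the reads, 18.5% to 24.4% stood in the lines without a gene, which were left out.

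Genes were kept by filterByExpr (min.count 10, min.total.count 15), which left 8708. They were tested with edgeR 4.0.16 (glmQLFit and glmQLFTest, two-sided, TMM, R 4.3.3) blocked by replicate number, and p-values were adjusted by Benjamini-Hochberg over all 8708 genes at a threshold of 0.05. SE is the log2 fold change over the root of F, and intervals use the fit's t distribution. Pair differences use log2 CPM with a prior count of 2. The code of the fit was run on simulated counts with 200 changed genes. Their changes were far larger than the members' fold changes, and no pair effect was simulated. The simulated spread was also smaller than in these libraries, whose fitted common coefficient of variation was 58.3%. That run therefore does not show how well small differences would be found here. The alternatives were DESeq2 1.42.0, limma-voom 3.58.1, no block, RLE or no scaling, 2 other filters and leaving out each pair. Overlaps, lengths and introns come from Ensembl's BDGP6.54 annotation. The members and lists were chosen with earlier results of these data known. Named members were those at an unadjusted p-value under 0.05 or called by DESeq2, the 5 highest and 5 lowest per kb, the untested, the 3 most variable and those with lettered numbers; others are said to be named after their values had been seen.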

Additional observations from a re-analysis of the deposited data

How the results depend on the processing

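The count of members at an unadjusted p-value under 0.05 was 2 in edgeR with the replicate block, 1 with no replicate block, 1 with DESeq2, 3 with library totals alone, 3 among genes with at least 1 count, and 1 to 2 when a pair was left out (1 without pair 1, 2 without pair 2 and 1 without pair 3). The count of called members was 0 in edgeR and 1 with DESeq2 (mRpL50). Over all tested genes, 0 were called in edgeR with the block, 8 with no replicate block, 380 with DESeq2, 4 with limma-voom, 11 among genes with at least 1 count, and 0 to 4 when a pair was left out (4 without pair 1, 3 without pair 3). The 869 genes at an unadjusted p-value under 0.05 became 421 with no replicate block, 529 to 756 when a pair was left out, 1298 with DESeq2, 1010 with limma-voom and 957 among genes with at least 1 count. Same-numbered libraries deviated from their group means with correlations of 0.046, 0.266 and 0.236 across genes, against -0.252 to 0.02 for other numbers. Deviations within a group sum to 0 in each gene, so the values for other numbers are not an independent baseline. The stated pairing showed little in pair 1. The members' median log2 fold change of 0.08 ran from 0.06 to 0.14 over the other tools, scalings and filters and from 0.01 to 0.12 without a pair; with library totals alone, where it was 0.14, the median of all genes was 0.08. DESeq2 called Prp3 (log2 fold change -1.17, adjusted p-value 0.00883). Of 150 values of named members, 145 kept their direction and side of the threshold, and mRpL50 was also called by DESeq2 (log2 fold change 0.61). Another 4 values turned round. With a pair left out, mRpS25 ran from -0.058 (without pair 1) to 0.13, mRpS18C from -0.13 (without pair 1) to 0.23, mRpS18B from -0.11 (without pair 3) to 0.35 and mRpL34 from -0.021 (without pair 3) to 0.31. The cause was not tested.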
